A study of Mus musculus with 4 samples.

Results

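The 29 genes described here encode enzymes and regulators of sterol and fatty acid synthesis. They were taken by symbol from a list of such genes, a rule that uses no values, though the list was chosen with earlier results of these data known. All 29 were found among the 50559 genes of the count table. They comprised 7 genes of the mevalonate steps, 11 of the sterol steps, 4 regulators, 1 sterol transporter and 6 genes of fatty acid synthesis. All 29 had a mean of at least 200 reads over the libraries, so none was lost to the minimum mean of 10 reads, which 18586 genes passed.

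The measurement was poly(A)+ RNA-seq of E14 mouse embryonic stem cells (ESCs), which in the study's methods carry a tdTomato reporter under the *MERVL* promoter and which were grown on gelatin in a serum-replacement medium with LIF. There were 4 libraries, 1 per group. The control group, shScram+EV, carried a scrambled hairpin and the empty vector, and shYthdf2+EV carried a hairpin against *Ythdf2* and the empty vector. In shYthdf2+DF2WT the same knockdown was combined with wild-type YTHDF2, and in shYthdf2+DF2Mut with a form mutated in its m6A-binding site. These groups are called the control, the knockdown, the wild-type library and the mutant library, and reads or levels given as a series of 4 follow this order. YTHDF2 is a cytoplasmic reader of N6-methyladenosine (m6A) in RNA and promotes the decay of transcripts that carry the mark. The hairpins were delivered by lentivirus and the lines kept under puromycin, so all 4 libraries came from selected lines, and the labels do not say which of the study's *Ythdf2* hairpins was used. No group had a replicate. Every ratio below therefore compares 2 single libraries and carries no p-value, and its 95% interval, computed on read pairs, covers counting error only.

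Cholesterol is built from acetyl-CoA through mevalonate, isoprenoid diphosphates and squalene to lanosterol, which a chain of endoplasmic reticulum enzymes trims to cholesterol. Fatty acids are built from the same acetyl-CoA by carboxylation, chain assembly, elongation and desaturation. Both sets of genes are activated by the SREBP transcription factors, which the escort protein SCAP carries to the Golgi for cleavage when sterols are scarce and which INSIG proteins retain when sterols are plentiful. Because of this shared control, genes of the pathway are commonly followed as one group.

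The promoters of 4 members are shown because these genes mark the ends of the knockdown comparison or hold the one match to the sterol element. *Insig1* and *Hsd17b7* had the highest ratios on knockdown and *Cyp51* the lowest, and *Hmgcs1* had the match. Each run is the 250 bases before the RefSeq start site, 5′ to 3′ on the gene's own strand, in build GRCm38.p6. The *Insig1* run lies at chr5:28071162-28071411 on the plus strand, the *Hsd17b7* run at chr1:169969206-169969455 on the minus strand, the *Cyp51* run at chr5:4104698-4104947 on the minus strand and the *Hmgcs1* run at chr13:119690101-119690350 on the plus strand. Capitals mark the CCAAT box, CCAAT or its reverse complement ATTGG, and the core of the sterol regulatory element, TCACNCCAC.
Insig1: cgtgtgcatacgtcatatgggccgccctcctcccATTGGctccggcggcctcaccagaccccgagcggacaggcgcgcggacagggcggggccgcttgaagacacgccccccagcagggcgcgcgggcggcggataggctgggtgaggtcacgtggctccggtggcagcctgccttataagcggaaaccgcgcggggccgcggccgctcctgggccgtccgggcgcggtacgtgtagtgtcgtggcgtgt
Hsd17b7: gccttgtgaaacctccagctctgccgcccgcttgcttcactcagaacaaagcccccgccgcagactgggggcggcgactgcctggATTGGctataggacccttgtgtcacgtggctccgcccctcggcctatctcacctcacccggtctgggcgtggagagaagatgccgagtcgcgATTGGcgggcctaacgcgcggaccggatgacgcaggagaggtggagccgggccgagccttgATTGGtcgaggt
Cyp51: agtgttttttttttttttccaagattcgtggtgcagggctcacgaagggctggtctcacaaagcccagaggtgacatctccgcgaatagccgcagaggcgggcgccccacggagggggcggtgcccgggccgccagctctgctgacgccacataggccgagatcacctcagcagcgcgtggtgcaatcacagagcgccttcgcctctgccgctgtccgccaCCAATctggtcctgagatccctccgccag
Hmgcs1: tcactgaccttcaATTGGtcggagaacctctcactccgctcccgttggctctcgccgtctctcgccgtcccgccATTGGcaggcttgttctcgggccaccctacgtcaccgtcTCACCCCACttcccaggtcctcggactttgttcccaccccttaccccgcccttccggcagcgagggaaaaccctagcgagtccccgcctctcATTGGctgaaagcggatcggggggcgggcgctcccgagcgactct

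Motifs were searched on both strands in the whole RefSeq window, from 250 bases before to 50 bases after the start, which was given for 23 of the 29 members. The CCAAT box was present in 19 of these 23 genes, compared with 41.1% of the 27025 genes with a window. The GC box, GGGCGG, was also present in 19 of the 23, compared with 38.2% of genes. By contrast, the TCACNCCAC core was present in 1 member, *Hmgcs1*, where it starts 137 bases before the start site, and in 1.44% of all genes. Each motif was counted on its own, so matches of different motifs may share bases. These matches describe the letters of the windows and are not evidence of binding. The 19 members with a CCAAT box had log2 ratios on knockdown from -0.54 to 0.46, 12 above 0 and 7 below, so promoters with the same boxes stood at both ends of the comparison.

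*Ythdf2* was examined first as a check of the labels. It had 2806 reads in the control, 662 in the knockdown, 7661 in the wild-type library and 6925 in the mutant library, which fits the labels if reads from the constructs are counted under the gene. Library totals lay between 31533129 and 35742335 reads, and mitochondrial genes took between 6.14% and 8.44% of them, the most in the control. The 7 ESC markers were abundant, with summed levels between 5087 and 5762 CPM (reads scaled to library size), whereas the 4 markers of liver and fat cells, other lipid-making cells, summed to at most 0.189 CPM, and 2 of those 4 never passed the floor of 3 reads. The libraries also differed in ways their labels do not name. The Y-linked genes *Eif2s3y*, *Uty* and *Ddx3y* together had 2 reads in the control, 592 in the knockdown, 85 in the wild-type library and 526 in the mutant library. The 418 genes of chromosome 12 with a mean of at least 200 reads had a median log2 ratio of -0.29 in the knockdown against the control. No member lies on chromosome 12 or Y, and on the 15 chromosomes that hold members this median lay between -0.036 and 0.043.

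All 29 genes were expressed in every library. Levels per exon length, in FPKM (a level scaled to exon length and library size, here from reads with TMM, edgeR's library-size factors), ranged from 3.93 for *Hsd17b7* in the control to 191 for *Scd2* in the mutant library. *Scd2*, a desaturase that makes monounsaturated fatty acids, had the highest level in each library. *Hmgcs1*, *Fdps*, *Elovl6*, *Acly* and *Srebf2* came next, all between 55.6 and 86.7 FPKM, and their order changed from library to library. The members together took 0.415% of the reads in the control, 0.455% in the knockdown, 0.436% in the wild-type library and 0.487% in the mutant library. Thus, the share was highest with the mutant construct and lowest in the control. A single gene varied little across the libraries. The highest level was a median of 1.23 times the lowest, from 1.04 times for *Acly*, the enzyme that makes cytosolic acetyl-CoA, to 1.63 times for *Pmvk*, the second kinase of the mevalonate steps.

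**Figure D1:**
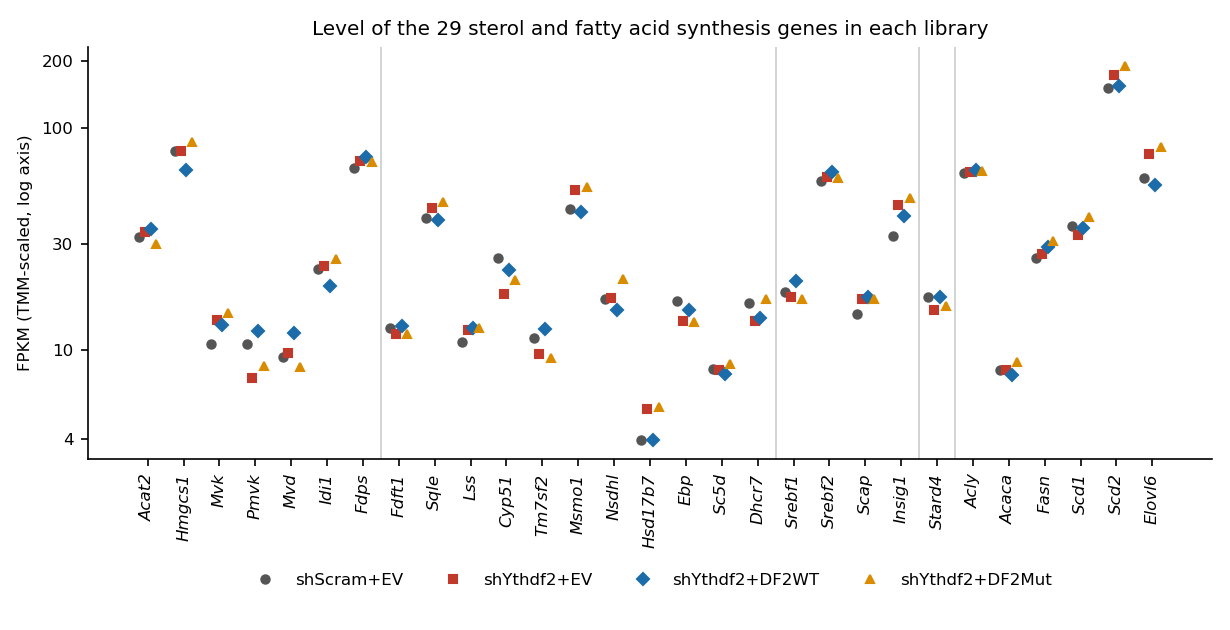
Level of each member in FPKM (log axis) in the 4 libraries, 1 point per library, with grey lines between mevalonate steps, sterol steps, regulators, transport and fatty acid synthesis. The points of most genes lie close together, from 3.93 for *Hsd17b7* to 191 for *Scd2*, and *Pmvk* and *Elovl6* show some of the widest gaps.

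The knockdown was compared with the control to ask how the pathway stood when YTHDF2 was depleted. The members did not move as one group. A gene was counted as higher when its level was at least 25% above that of the other library and as lower when it was at most 80% of it. Of the 29, 4 were counted as higher in the knockdown (13.8%; 24.1% of the tested genes and 16.2% of the 10817 genes with a mean of at least 200 reads were) and 2 as lower (6.9%, against 23.4% and 15.1%). The other 23 members stayed within these limits. Both shares were below the backgrounds, but the counts are small and 13.8% lies near 16.2%. The backgrounds also include genes with fewer reads than any member. The members' median log2 ratio was 0.043, and the median of all tested genes was -0.0015. Of the members 18 (62.1%) lay above 0 and 11 below. Above 0 were 49.8% of the tested genes and 50.1% of those with a mean of at least 200 reads. As the samples are bulk RNA, a shift in the share of cells and a shift in RNA per cell cannot be told apart in any of these values.

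Within the mevalonate steps, the neighbouring kinases stood on opposite sides. *Mvk* (mm39 chr5:114582324-114598652), which phosphorylates mevalonate, had 597 reads in the control, 871 in the knockdown, 764 in the wild-type library and 829 in the mutant library, and was 1.28-fold higher on knockdown (log2 ratio 0.36, 95% interval 0.15 to 0.58). *Pmvk* (chr3:89361848-89376321), which acts on the product of *Mvk*, had 1148, 917, 1365 and 915 reads. It stood at 70.2% of its control level in the knockdown (-0.51, -0.69 to -0.33). *Mvk* was thus lowest in the control and *Pmvk*, once scaled, lowest on knockdown. *Hmgcs1*, the synthase that makes HMG-CoA and whose promoter holds the match above, had 10523, 12026, 9030 and 11619 reads and did not differ on knockdown beyond counting error (0.0066, -0.047 to 0.060). *Idi1*, the isomerase of isoprenoid units, had 2107, 2470, 1844 and 2340 reads (0.043, -0.077 to 0.16), and *Mvd*, the decarboxylase, had 550, 648, 735 and 496 (0.051, -0.19 to 0.29). For both the interval included 0. Of the 7 genes, 6 had a ratio above 0 and 2 of those 6 had an interval above 0, *Mvk* and *Fdps*. Some limits come from the counting, which ignored strand. Opposite-strand transcripts overlap 28.6% of the exon length of *Mvd* and 30.5% of that of *Acat2*, and *Idi1* has 2 pseudogenes with reads, of which *Idi1-ps1* had 135 to 206 reads and *Idi1-ps4* 3 to 27.

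The sterol steps, from squalene synthase to cholesterol, were the most divided. *Hsd17b7* (mm39 chr1:169777104-169796913), the ketoreductase that acts in removal of the methyl groups at carbon 4, had 707 reads in the control, 1109 in the knockdown, 740 in the wild-type library and 1003 in the mutant library. It was 1.38-fold higher on knockdown (0.46, 0.27 to 0.66), and the knockdown and mutant libraries both exceeded the other libraries. *Cyp51* (chr5:4130674-4154697), the lanosterol demethylase, had 3572, 2791, 3285 and 2882 reads and stood at 68.7% of control (-0.54, -0.64 to -0.44), the lowest ratio of any member. *Msmo1*, the oxidase that acts on the same methyl groups as *Hsd17b7*, had 3174, 4423, 3205 and 4038 reads and a ratio of 0.29 (0.20 to 0.39), just under the limit of 0.32 for a higher gene. *Nsdhl*, which acts between *Msmo1* and *Hsd17b7*, had 1188, 1368, 1112 and 1481 reads and no difference beyond counting error (0.018, -0.14 to 0.18). The control was therefore lower for the oxidase and the ketoreductase of this step and not for the dehydrogenase between them. *Dhcr7*, a late reductase of the route, had 2325, 2188, 2067 and 2445 reads and a ratio of -0.27 (-0.39 to -0.15), and *Tm7sf2*, a sterol reductase, had 528, 510, 606 and 434 reads (-0.24, -0.49 to 0.018). Of the rest, *Sqle*, which oxidises squalene, and *Lss*, which closes it to lanosterol, had ratios of 0.15 (0.054 to 0.24) and 0.18 (0.069 to 0.29). *Ebp*, a sterol isomerase, stood at -0.30 (-0.49 to -0.10), while for *Fdft1*, squalene synthase (-0.085), and *Sc5d*, a desaturase (-0.017), the interval included 0. In all, 5 of the 11 genes lay above 0 and 6 below, with a median of -0.017, so the enzymes that follow each other on the route gave no common direction.

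Among the regulators, the retention factor and not the transcription factors stood out. *Insig1* (mm39 chr5:28276410-28283660), which holds the SREBP complex in the endoplasmic reticulum and is itself an SREBP target, had 2735 reads in the control, 4291 in the knockdown, 3497 in the wild-type library and 4090 in the mutant library. It was 1.38-fold higher on knockdown (0.46, 0.37 to 0.56), the highest ratio of any member, and the control was the lowest library. *Srebf2*, the main activator of sterol genes, had a ratio of 0.054 (-0.0004 to 0.11), *Srebf1*, which favours fatty acid genes, -0.078 (-0.18 to 0.027), and *Scap* 0.22 (0.11 to 0.34). *Stard4*, a carrier of cholesterol between membranes, had a ratio of -0.19 (-0.29 to -0.084).

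In fatty acid synthesis, the early enzymes were close to the control and the elongase was not. *Acly* had a ratio of 0.029 (-0.015 to 0.073), *Acaca*, acetyl-CoA carboxylase, -0.0050 (-0.11 to 0.10) and *Fasn*, fatty acid synthase, 0.069 (0.010 to 0.13). *Elovl6* (mm39 chr3:129326035-129432144), which elongates the saturated products of *Fasn*, had 11236 reads in the control, 16347 in the knockdown, 10885 in the wild-type library and 15557 in the mutant library and was 1.28-fold higher (0.35, 0.31 to 0.40). The control and the wild-type library were the low ones for this gene. The desaturases differed in sign, with 0.20 (0.17 to 0.24) for *Scd2* and -0.14 (-0.21 to -0.061) for *Scd1*.

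**Figure D2:**
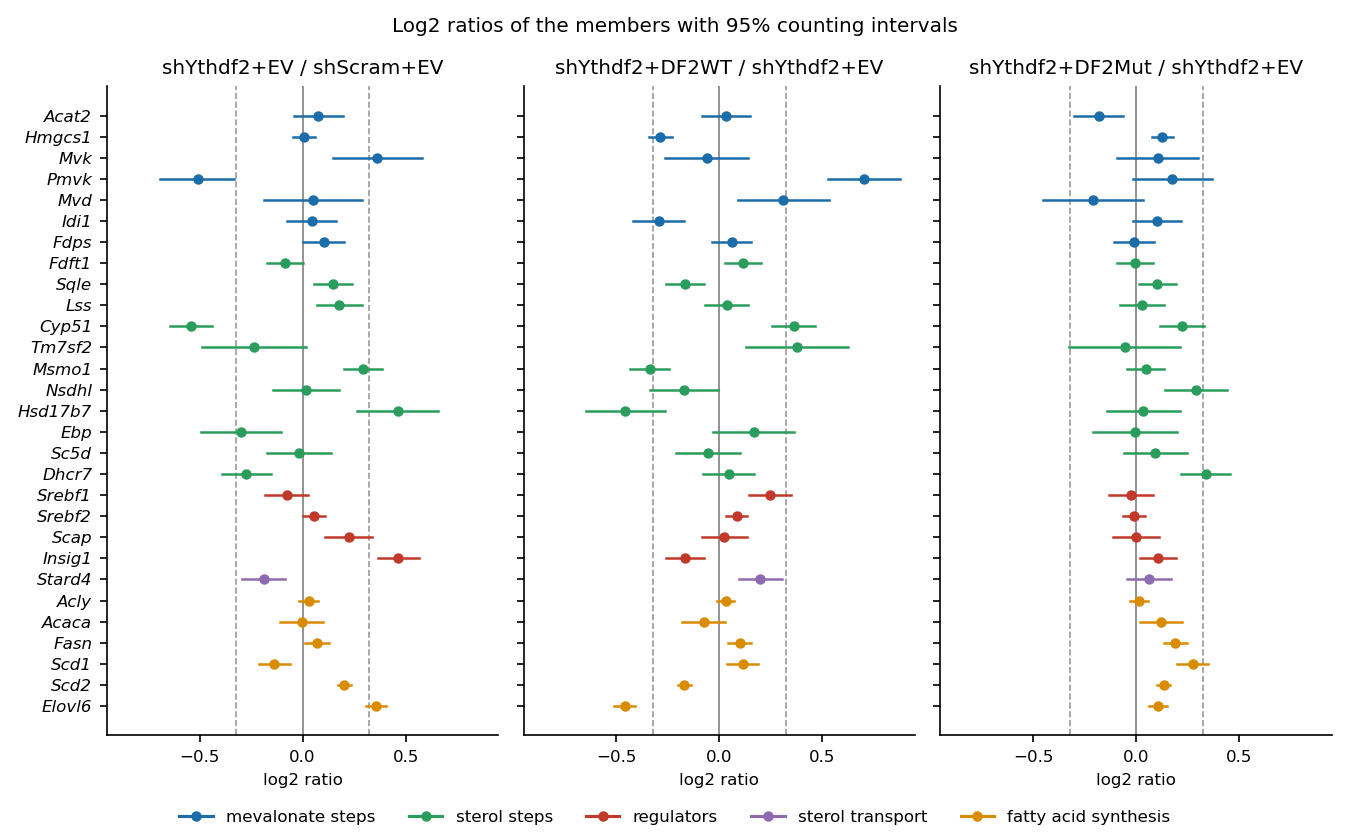
Log2 ratio of each member, coloured by role, for the knockdown against the control and for each construct against the knockdown, with lines for the 95% counting interval and dashes at the limits for higher and lower genes. *Insig1* and *Hsd17b7* stand highest and *Cyp51* lowest on knockdown, *Pmvk* stands far to the right with the wild-type construct, and *Dhcr7* alone passes a limit with the mutant construct.

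The constructs were then compared with the knockdown to ask which members stood differently once YTHDF2 was put back. These comparisons share the knockdown with the knockdown comparison, so an opposite sign between them is partly built in. With the wild-type construct, 3 members were higher (10.3%; background 22.3% of the tested genes and 13.4% of those with a mean of at least 200 reads) and 3 lower (10.3%, against 21.0% and 12.7%). The higher ones were *Pmvk* (log2 ratio 0.70, 0.53 to 0.88), *Tm7sf2* (0.38, 0.13 to 0.62) and *Cyp51* (0.36, 0.26 to 0.47), and the lower ones *Elovl6* (-0.46, -0.51 to -0.41), *Hsd17b7* (-0.46, -0.65 to -0.26) and *Msmo1* (-0.34, -0.43 to -0.24). *Insig1* was lower by less (-0.17, -0.26 to -0.077) and stayed 1.23-fold above the control (0.30, 0.19 to 0.40). *Mvk* did not differ between these libraries beyond counting error (-0.062, -0.27 to 0.14). Hence, of the 6 members past a limit on knockdown, *Pmvk*, *Cyp51*, *Elovl6* and *Hsd17b7* passed a limit in the other direction with the wild-type construct. *Insig1* and *Mvk* did not. How often this happened among all genes past a limit on knockdown was not counted. The count is therefore not a result about the members. For *Elovl6* and *Hsd17b7* the passing in the other direction held only before the GC subtraction given below. The members' median was 0.032, against 0.0027 for all tested genes, and it was -0.030 after that subtraction.

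With the mutant construct the members stood close to the knockdown, as most genes did. Of the 10817 genes with a mean of at least 200 reads, 9588 stayed within the limits. Among the 29, 1 was counted as higher (3.45%, against 13.5% and 3.48%) and 0 as lower (against 17.4% and 7.89%). The 1 gene was *Dhcr7* (0.34, 0.22 to 0.46), which had its highest level in the mutant library and was not past the limit (0.29) after the medians of genes of like GC content and exon length were subtracted, as described below. The members' median was 0.091, and that of all tested genes was 0.0066. Of the members 20 (69.0%) lay above 0, against 51.2% of the tested genes and 53.8% of those with a mean of at least 200 reads. All 6 fatty acid genes, a small list, lay above 0, from 0.013 for *Acly* to 0.27 for *Scd1*, and the interval of *Acly* included 0. After the same subtraction, 5 of the 6 were above 0 and the list's median went from 0.13 to 0.038.

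The libraries with each construct were compared directly, since this pair differs in the m6A-binding site of YTHDF2 and shares no library with the knockdown comparison. Relative to the wild-type library, 6 members were higher in the mutant library (20.7%, against 23.6% and 17.5%) and 3 lower (10.3%, against 27.0% and 19.5%). The higher ones were *Elovl6* (0.56, 0.51 to 0.61), *Hsd17b7* (0.49, 0.29 to 0.69), *Nsdhl* (0.46, 0.30 to 0.62), *Hmgcs1* (0.41, 0.36 to 0.47), *Idi1* (0.39, 0.27 to 0.52) and *Msmo1* (0.38, 0.29 to 0.48). The lower ones were *Pmvk* (-0.53, -0.70 to -0.35), *Mvd* (-0.52, -0.76 to -0.28) and *Tm7sf2* (-0.43, -0.69 to -0.18). Across the 29 members, this ratio and the knockdown ratio had the same sign in 18 (62.1%), with a Pearson's r of 0.57 and a Spearman's rho of 0.51. Across the 10817 genes with a mean of at least 200 reads the share was also 62.1% (6719 genes), with 0.49 and 0.39. The members' median of the mutant to wild-type ratio was 0.091, that of all tested genes was -0.012, and the other 16 of the 29 genes, which passed no limit in any of the 5 comparisons, stayed between -0.30 and 0.30 throughout. The correlations are descriptions across genes, which are not independent replicates, and the members did not stand apart from other genes in the share of like signs.

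**Figure D3:**
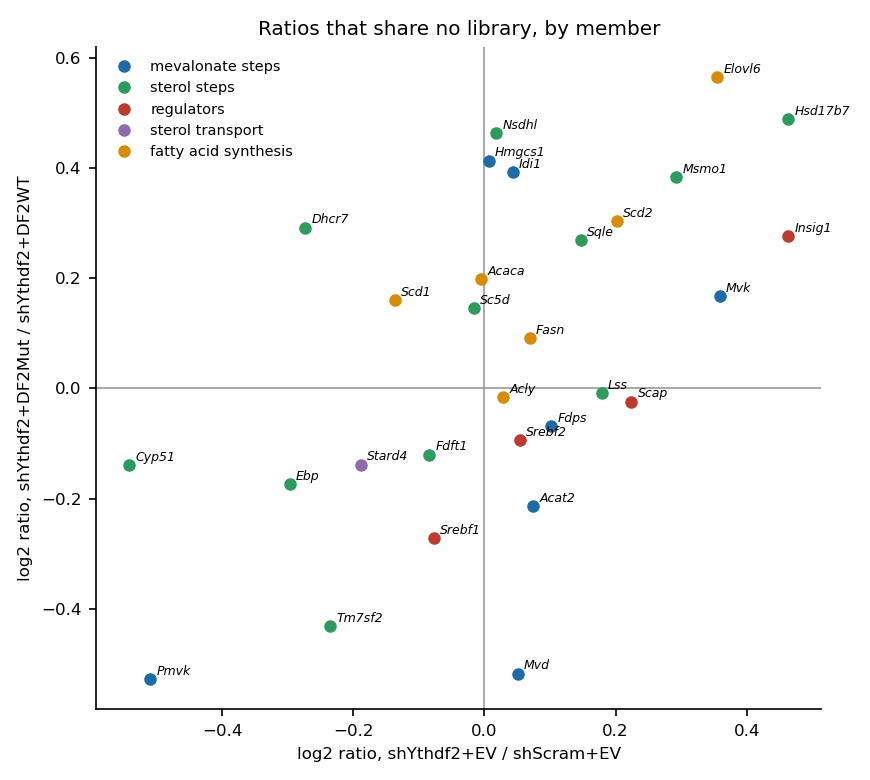
Log2 ratio of the mutant library to the wild-type library against that of the knockdown to the control, 1 point per member, coloured by role. *Elovl6*, *Hsd17b7* and *Msmo1* lie at the upper right, *Pmvk* and *Tm7sf2* at the lower left, and *Nsdhl*, *Hmgcs1* and *Idi1* lie high with a knockdown ratio near 0.

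This comparison moved with base composition. GC content of the members' transcripts ranged from 41.9% for *Idi1* to 59.1% for *Scap*, with a median of 49.5% (49.9% for all tested genes). The mutant to wild-type ratio had a Spearman's rho with GC content of -0.61 over the 29 members and -0.50 over 10512 genes with a mean of at least 200 reads and a GC value. Of the 14 members below the median GC content, 11 had a ratio above 0, with a median of 0.27. Of the 14 above it, 11 had a ratio below 0, with a median of -0.11. The ratio of the wild-type library to the knockdown ran the other way, with 0.56 over the members and 0.43 over all genes, while the knockdown ratio hardly followed GC content, with -0.078 and -0.022. All points of a comparison come from the same pair of libraries. Once medians of genes of like GC content and exon length were subtracted, *Msmo1* (0.32), *Nsdhl* (0.40) and *Pmvk* (-0.33) remained past the limits in the mutant to wild-type comparison. *Elovl6*, *Hmgcs1*, *Hsd17b7*, *Idi1*, *Mvd* and *Tm7sf2* did not, with values from -0.18 to 0.28, and *Mvk*, *Sqle*, *Insig1* and *Stard4* newly passed them. In the comparison of the wild-type library with the knockdown, *Pmvk* (0.53) and *Cyp51* (0.39) remained past the limits. *Tm7sf2* (0.29) and *Elovl6*, *Hsd17b7* and *Msmo1*, each at -0.29, did not, and *Stard4* (0.36) newly passed them. All 6 members past a limit on knockdown remained so, and *Tm7sf2* (-0.35) newly passed. The part of base composition in these ratios was not tested.

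**Figure D4:**
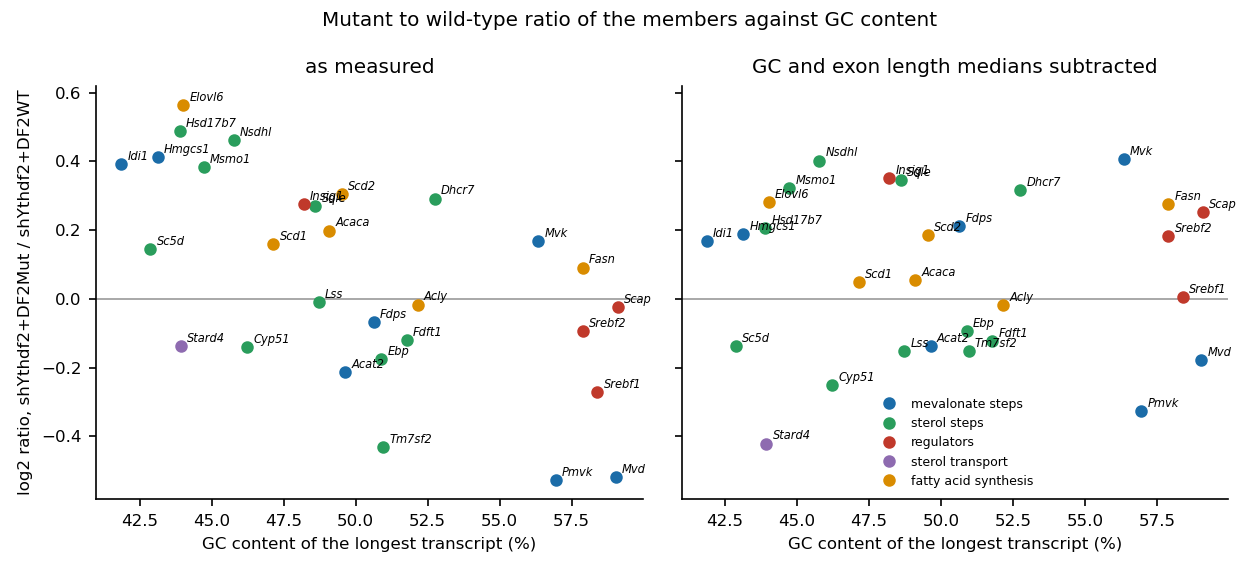
Log2 ratio of the mutant library to the wild-type library against the GC content of each member's longest transcript, as measured (left) and after medians of genes of like GC content and exon length were subtracted (right). On the left the points slope downward from *Idi1* and *Elovl6* to *Pmvk* and *Mvd*, and on the right the slope is weaker and *Mvk* lies highest.

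The 4 libraries were also ordered for each member. In 10 members the libraries with *Ythdf2* knocked down and no wild-type construct, the knockdown and the mutant library, were above both others (34.5%; 26.4% of the tested genes and 28.4% of those with a mean of at least 200 reads), and in 7 both were below (24.1%, against 27.5% and 28.1%). The remaining 12 were mixed. The 10 were *Hmgcs1*, *Mvk*, *Idi1*, *Sqle*, *Msmo1*, *Nsdhl*, *Hsd17b7*, *Insig1*, *Scd2* and *Elovl6*, and the 7 were *Pmvk*, *Fdft1*, *Cyp51*, *Tm7sf2*, *Ebp*, *Srebf1* and *Stard4*. The order used levels without the GC subtraction. Of the 10, all but *Mvk* had a GC content of 41.9% to 49.5%, at or below the members' median. Of the 7, all but *Cyp51* and *Stard4* had 50.9% to 58.4%, above it. The gap between the lower of the high pair and the higher of the low pair was 1.37-fold for *Hsd17b7*, 1.28-fold for *Elovl6* and 1.22-fold for *Msmo1*. It was 1.00-fold for *Hmgcs1*, 1.01-fold for *Nsdhl* and 1.03-fold for *Idi1*, whose intervals on knockdown included 0. With a gap of at least 1.1-fold, 6 of the 10 and 4 of the 7 members were left. Among the 18586 tested genes, this gap left 3086 of the 4908 with both above and 3217 of the 5113 with both below. Exons of *Fdft1* overlap those of the opposite-strand gene *Ctsb* over 7.43% of their length. *Ctsb* had 4748, 3816, 5288 and 3648 reads and so, once scaled, was also lower in the knockdown and mutant libraries. Other features of the libraries followed the same split. The 4 markers of the 2-cell-like state, a rare state of cultured ESCs, summed to 86.1 CPM in the control, 307 in the knockdown, 101 in the wild-type library and 266 in the mutant library. The 5 primitive endoderm markers summed to 13.1, 16.1, 9.995 and 15.5 CPM, the 4 trophectoderm markers to 55.2, 27.7, 50.1 and 25.5, and the Y-linked reads given above split in the same way. Single markers did not all follow their sum. *Gata4* (4.21, 3.37, 2.19 and 2.23 CPM) and *Sox17* (0.633, 1.17, 0.486 and 0.629 CPM), both of primitive endoderm, did not split in this way. *Krt8* and *Krt18* made up most of the trophectoderm sum. *Cdx2*, with only 8, 11, 10 and 14 reads, was not lower in the knockdown and mutant libraries. The 4 fibroblast markers, at 16.5, 11.4, 11.4 and 10.9 CPM, did not split in this way either. The part of these features and of GC content in the members' order was not tested.

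Finally, the wild-type library was set against the control. Here 1 member was counted as higher (3.45%, against 19.1% and 9.80%) and 0 as lower (against 14.9% and 5.81%). The 1 gene was *Mvd* (0.36, 0.13 to 0.59), which was not past the limit after the GC and exon length medians were subtracted (0.13). All 4 regulators, a small list, had a ratio above 0, from 0.14 for *Srebf2* to 0.30 for *Insig1*, with intervals above 0. Of the 10817 genes with a mean of at least 200 reads, 49.0% had a ratio above 0, and 2434 genes had an interval above 0. After the same subtraction *Srebf1* and *Srebf2* were at -0.035 and -0.067, and *Scap* and *Insig1* at 0.043 and 0.28. Over the members the ratio had a Spearman's rho with GC content of 0.66, compared with 0.54 over all genes, and the part of base composition was not tested here either.

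For the rest of the pathways, 46 further genes were read, all of them tested. On knockdown, 5 were counted as higher (10.9%) and 15 as lower (32.6%), with a median of -0.14, beside the members' 4 and 2 and their median of 0.043. Of all tested genes 24.1% were higher and 23.4% lower, and of those with a mean of at least 200 reads 16.2% and 15.1%. The lists below are small, and counts such as 3 of 10 or 1 of 5 lie near these shares. The lower genes were mostly partners of the synthesis enzymes (6 of 17, 1 higher) and genes of sterol export, esterification and lysosomal release (4 of 9, 1 higher). Of 10 genes of fatty acid oxidation 3 were lower and 2 higher, of 5 of the isoprenoid branch 1 and 0, and of 5 of SREBP processing and regulation 1 and 1. *Acss2*, which makes cytosolic acetyl-CoA from acetate, had 1049 reads in the control, 564 in the knockdown, 1003 in the wild-type library and 589 in the mutant library. It stood at 47.3% of control on knockdown (-1.08, -1.29 to -0.87), whereas *Acly*, which makes the same product from citrate, did not differ beyond counting error. *Acadm*, a dehydrogenase of fatty acid oxidation, had 4975, 3133, 4395 and 3061 reads and stood at 55.4% (-0.85, -0.95 to -0.76). *Abcg1*, a sterol exporter, had 255, 180, 219 and 201 reads and stood at 62.1% (-0.69, -1.10 to -0.29). *Npc2*, which hands on cholesterol in lysosomes, had 4778, 3877, 5479 and 3073 reads and a ratio of -0.49 (-0.575 to -0.40), and it lies on chromosome 12, whose median was -0.29. For *Acss2*, *Acadm* and *Npc2* the knockdown and mutant libraries were the low ones, while for *Abcg1* the mutant and wild-type libraries did not differ beyond counting error (-0.074, -0.49 to 0.32). The order of the 3 genes contrasts with *Elovl6* and *Hsd17b7*, where they were the high ones.

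**Figure D5:**
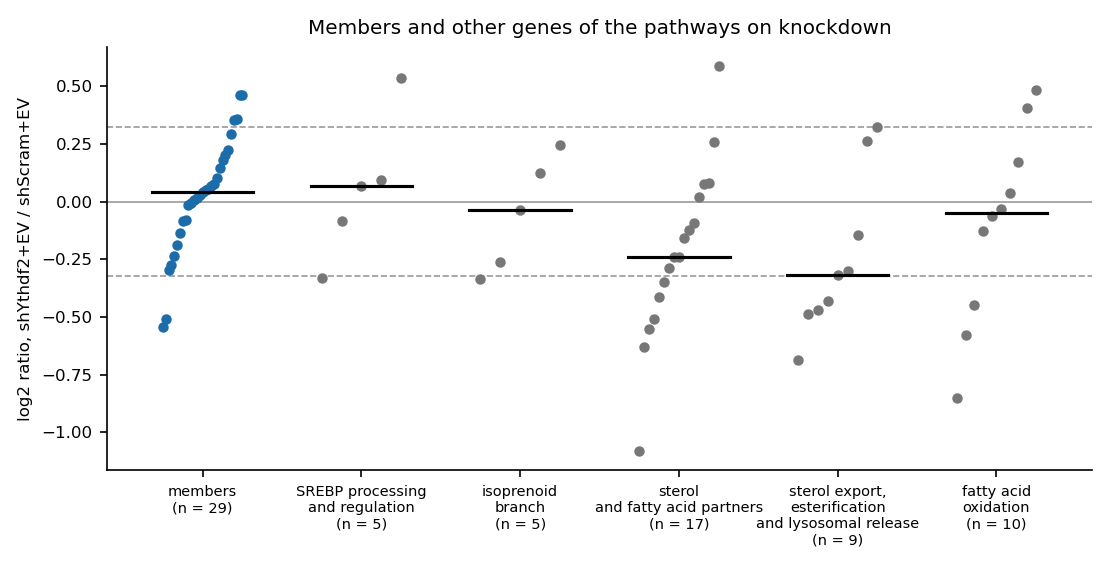
Log2 ratio of the knockdown to the control for the 29 members and for 5 lists of other genes of the pathways, 1 point per gene, with a bar at each median and dashes at the limits for higher and lower genes. The members' median is 0.043, that of the synthesis partners -0.24 and that of sterol export -0.32, and the lowest point is *Acss2* at -1.08.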

How the data were processed

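Gene-level read counts deposited by the authors were used as deposited. Per the file headers, the authors used featureCounts 2.0.3 with UCSC's mm39 RefSeq gene models to count reads, not pairs, at exons, without strand although the libraries were stranded, and left out reads with several places or genes. The submitters' processing notes also list fastp 0.19.4, HISAT2 2.2.1, DESeq2 1.40.2 and build mm10, another build than the header's. Total counts per library were 31533129 to 35742335.

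Libraries were scaled by TMM (edgeR 4.0.16, R 4.3.3). A prior count of 0.5 was added, and log2 ratios were taken for 5 pairs of libraries. Genes with a mean of at least 10 reads were compared, and a gene was counted at 25% above the other library or at 80% of it and below. Clopper-Pearson 95% intervals used reads divided by 2 and cover counting error only, since amplified reads are not independent molecules. Replicates and DESeq2 tests are part of the study's methods, yet each group here has 1 library, so no test was run. GC content came from the longest GENCODE vM21 transcript, and GC (10 bins) by exon length (5 bins) medians were subtracted as an alternative. Promoter windows were RefSeq's. The interval code was tested on simulated data. Members with all their reads printed are those past these limits in any comparison, and other genes of the pathways are up to 3 per comparison with a mean of at least 200 reads. The members and lists were chosen with earlier results of these data known.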

Additional observations from a re-analysis of the deposited data

How the results depend on the processing

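Of 148 alternative values, 123 stayed within the tolerance for their kind and 25 moved. A count stayed within it if it was equal to the main count or, with both above 0, within 1.5-fold of it. The members' median log2 ratio moved by less than the median distance from a member's ratio to the end of its counting interval, 0.103 to 0.107, under DESeq2 1.42.0 size factors, total counts and the other settings run. Its sign held in 4 of the 5 comparisons, and for shYthdf2+DF2WT against shYthdf2+EV the median of 0.032 became -0.030 with GC and exon length medians subtracted and -0.069 for the ratio of summed reads. The counts past the limit depended on the limit itself. At 1.5-fold they were 0 in every comparison and direction with a main count above 0, except 1 member (*Pmvk*) higher in shYthdf2+DF2WT against shYthdf2+EV, and at 2-fold they were 0 throughout. With a mean of at least 1000 reads, 2 members were higher in shYthdf2+EV against shScram+EV, 1 was lower in shYthdf2+DF2Mut against shYthdf2+DF2WT and 0 were higher in shYthdf2+DF2WT against shScram+EV, since fewer members enter. With GC and exon length medians subtracted, 0 were lower in shYthdf2+DF2WT against shYthdf2+EV, 0 higher in shYthdf2+DF2Mut against shYthdf2+EV and 0 higher in shYthdf2+DF2WT against shScram+EV. With total counts in place of TMM, 3 were higher in shYthdf2+DF2WT against shScram+EV. A gap of at least 1.1-fold left 6 members with shYthdf2+EV and shYthdf2+DF2Mut both above and 4 with both below. Among the 18586 tested genes, the same gap left 3086 of 4908 with both above and 3217 of 5113 with both below. The causes were not tested. No paired analysis was possible because each group has 1 library and the labels carry no replicate numbers, and for the same reason no replicate could be left out. Depth limits the members with fewest reads, *Tm7sf2* and *Mvd*, whose intervals are the widest.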

Other observations

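Among the genes next to the synthesis enzymes, 5 more were named by the same rule. *Lipa*, the lysosomal lipase that frees cholesterol and fatty acids, had 401 reads in the control, 412 in the knockdown, 393 in the wild-type library and 548 in the mutant library, so the mutant library alone stood high. *Abca1*, a sterol exporter, had 271, 386, 240 and 400 reads, and its log2 ratio of knockdown to control had a counting interval that included 0 (0.32, -0.0050 to 0.65). *Mid1ip1*, which binds acetyl-CoA carboxylase, had 553, 912, 775 and 597 reads. *Aacs*, which activates acetoacetate for lipid synthesis, had 625, 1068, 956 and 954 reads, and *Cpt2*, which admits fatty acids to mitochondrial oxidation, had 768, 640, 622 and 567 reads. For *Aacs* and *Cpt2* the control library stood apart from the 3 libraries with the *Ythdf2* hairpin, above them for *Cpt2* and below them for *Aacs*.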
